A study of Mus musculus with 16 samples.

Results

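Mouse counterparts of genes linked to amyotrophic lateral sclerosis (ALS) were examined in spinal cord RNA of mice that express human profilin 1. They were chosen by symbol from a list of ALS genes and of risk or modifier genes, with profilin 1 itself left out. All 32 listed genes were among the 18167 genes measured. The list is wider than genes mutated in familial ALS. *Atxn2*, *Unc13a* and *Epha4* are counterparts of risk or modifier genes, *Smn1* of the spinal muscular atrophy gene, and *Stmn2* of a gene whose transcript is a known target of TDP-43, so the genes are called ALS-linked here.

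The study sequenced mRNA of spinal cord from 16 mice, labelled male, to compare mutant with wild-type profilin 1 before symptoms and at end stage. Mutant mice, C57BL/6N-Tg(Prnp-PFN1*G118V) of line 838Kiaei/J, carried human profilin 1 with the G118V change. Wild-type mice, C57BL/6N-Tg(Prnp-PFN1) of line 850Kiaei/J, carried the unchanged human protein. The groups were mutant young (MY, n = 3), wild-type young (WY, n = 3), mutant old (MO, n = 5) and wild-type old (WO, n = 5). MY and WY mice were 50 days old. MO mice were 175 to 245 days old and at end stage, and WO mice were 190 to 294 days old. Both transgenes were driven by the mouse prion protein promoter, which is active in many cell types, and each genotype came from 1 transgenic line. Every mouse thus carried a human profilin 1 transgene, and no mouse without one was included. All young mice were in batch 1. Of the 5 mice in either old group, 3 were in batch 1 and 2 in batch 2.

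Genes linked to ALS act in a few shared processes. Many encode RNA-binding proteins of the nucleus and of stress granules, among them TDP-43, which forms cytoplasmic inclusions in most patients. Others encode proteins that clear ubiquitinated cargo by autophagy or the proteasome, or that carry cargo along the microtubules of long motor axons. Most are expressed in many cell types, although motor neurons are the cells lost in the disease.

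Levels are given as log2(1 + FPKM), where FPKM scales fragments by transcript length and library size, so that levels of different genes are compared per length. The values were corrected for batch by the authors. A log2 fold change is the difference between 2 group means on this scale, and it understates changes of genes near an FPKM of 1. The adjusted p is that of limma with Benjamini-Hochberg adjustment over all 18167 genes. A gene was called when the adjusted p was at most 0.05. The deposited values do not hold the number of fragments behind each level, so no counting error is given.

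Several libraries stood apart. MO5 went against the label male, since its log2(1 + FPKM) level of *Xist* was 3.21, where no other mouse exceeded 0.37. Its level of *Ddx3y*, a Y-chromosome gene, was 1.95, where every other mouse reached 4.06 or more. WY1 had the lowest level among the 11 mice outside MO for 21.1% of all genes and the highest for 20.3%. In WO4 the myelin gene *Mbp* was at 5.36, against 12.16 or more in every other mouse. WO4 and WO5 were 294 days old, older than every MO mouse, and both were in batch 2.

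ALS-linked genes differed in end-stage mutant cord mainly by small decreases. Against WO, 13 of the 32 genes were called, 2 higher and 11 lower in MO. Of all genes, 27.9% were called, 15.0% higher and 12.9% lower. Against MY, 11 genes were called, 2 higher and 9 lower, while 25.6% of all genes were called, 13.1% higher and 12.5% lower. The 2 higher genes were *Ang* and *Sqstm1* in both comparisons. *Kif5a*, *Tuba4a*, *Dctn1*, *Unc13a*, *Epha4*, *Erbb4*, *Atxn2*, *Vapb* and *Fig4* were lower in both, and *Nek1* and *Ubqln2* against WO. Both comparisons use the same MO mice, so they are not independent of each other. In bulk tissue, fewer cells of a type and less RNA per cell cannot be told apart.

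The share of ALS-linked genes that fell was above the share of all genes and the share that rose was below it, but no test of the list was run. Among the 13530 genes with a mean level of at least 1, which included 31 of the 32, 16% fell against WO and 16.2% against MY. At a fold change of at least 1.5 only *Ang* was called, 1 of 32 in each comparison, where 4.60% of all genes passed against WO and 4.90% against MY. MO and WO did not overlap in any mouse for 10 ALS-linked genes (19.9% of all genes), and MO and MY for 12 (31.6% of all genes). The median log2 fold change of the 32 genes was -0.027 against WO and -0.041 against MY, and that of all genes was 0.00035 and 0.0047.

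Without MO5, 11 genes were called against WO, all among the 13, and 11 against MY, 10 of them shared. Over all genes the same fits called 4708 against WO and 4309 against MY, where 5075 and 4646 were called with MO5. *Erbb4* (log2 fold change -0.43, limma adjusted p = 0.0533) and *Nek1* (log2 fold change -0.15, limma adjusted p = 0.0699) were no longer called against WO without it. Against MY, *Tuba4a* was lost (log2 fold change -0.32, limma adjusted p = 0.0522) and *Sod1* gained (limma adjusted p = 0.026). Against MY, 7 genes were called without MY1 and 6 without MY3. Counts over all genes are not given for these fits, so nothing particular to the 32 genes is read from the drop. Without the 294-day WO mice, 9 of the 13 were called, and 3025 of all genes. The direction of the WO vs. MO difference was the same within batch 1 and within batch 2 for 25 of all 32 genes. The 13 called genes were among these 25, but they were called on the same mice.

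**Figure D1:**
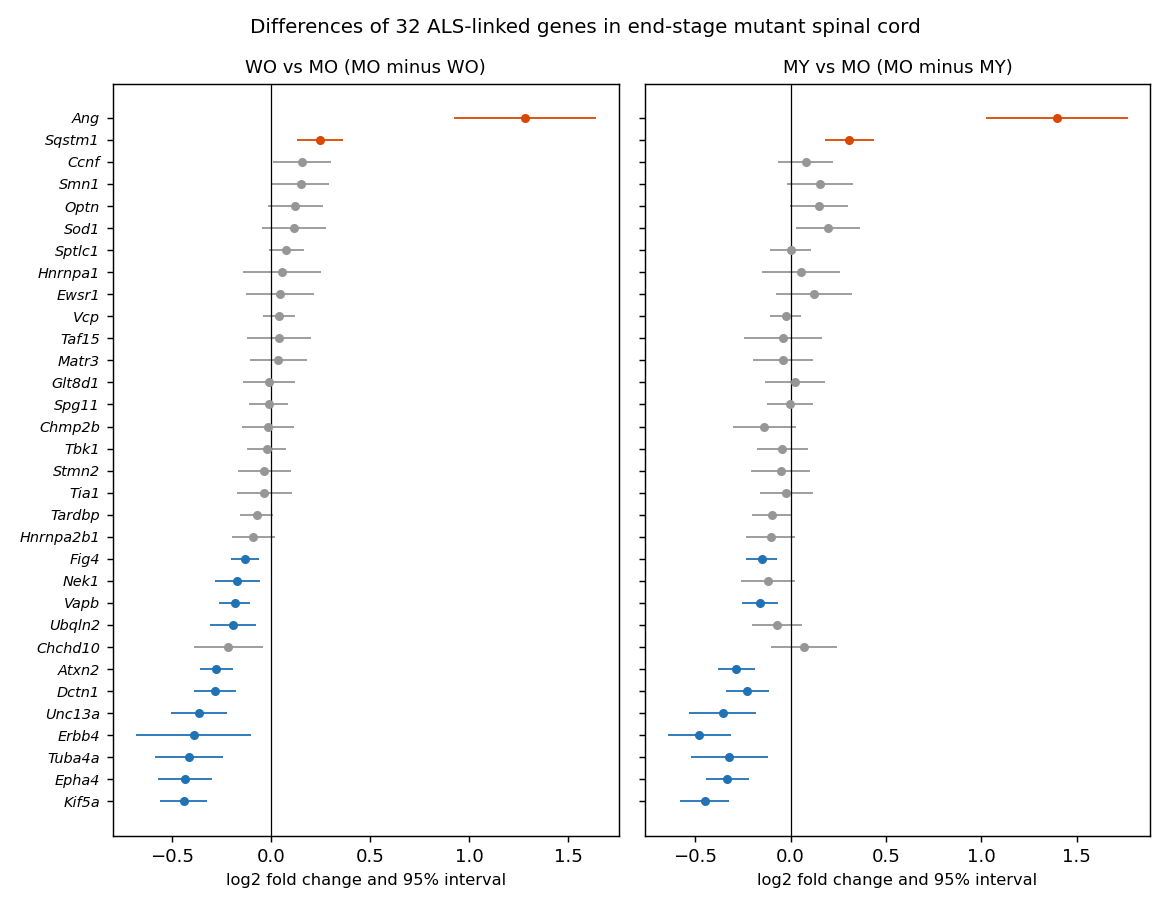
Log2 fold change of each of the 32 ALS-linked genes in MO against WO (left) and against MY (right), with 95% intervals from limma. Orange points were called higher (*Ang* and *Sqstm1* in both panels), blue points were called lower (11 genes on the left, 9 on the right), and grey points were not called.

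Levels of ALS-linked genes were mostly high. Their median over the 16 mice was 4.82, against 2.83 for all genes. *Sod1* was highest with a mean level of 8.90, followed by *Kif5a* at 8.24, *Stmn2* at 8.15, *Sqstm1* at 8.10 and *Tuba4a* at 7.84. *Kif5a*, *Stmn2* and *Sqstm1* differed by no more than the SD of *Kif5a* within groups, 0.14. At the low end were *Epha4* at 2.79, *Spg11* at 2.74, *Ang* at 2.36, *Erbb4* at 1.97 and *Ccnf* at 0.79. These means are over all 16 mice, and the order was not the same in MO, where *Sqstm1* averaged 8.30, *Stmn2* 8.13 and *Kif5a* 7.96, and *Ang* averaged 3.27 against 2.53 for *Epha4*. The SD within groups ran from 0.045 for *Vcp* to 0.31 for *Erbb4*, with a median of 0.096, close to the 0.099 of all genes.

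Of the 8 RNA-binding proteins, *Atxn2* fell in both comparisons and the other 7 were not called in either. Over all genes, 12.9% fell against WO and 12.5% against MY, so nothing particular to the group is read from this count. Ataxin 2, encoded at chr5:121711337-121816493 on the plus strand, binds poly(A)-binding protein and takes part in stress granules and translation. *Atxn2* had log2(1 + FPKM) levels of 4.53, 4.50, 4.52, 4.42 and 4.55 in MO1 to MO5, 4.75, 4.79, 4.71, 4.81 and 4.82 in WO1 to WO5, 4.82, 4.75 and 4.79 in MY1 to MY3 and 4.55, 4.85 and 4.67 in WY1 to WY3. All 5 MO mice lay below the 11 others, but MO5 and WY1 were nearly equal. The log2 fold change of *Atxn2* was -0.27 (SE 0.037, limma adjusted p = 0.000381) against WO and -0.28 (SE 0.043, limma adjusted p = 0.00226) against MY. *Tardbp*, which encodes TDP-43, had a level of 4.92 ± 0.067 (SD, n = 5) in MO and 4.99 ± 0.025 (SD, n = 5) in WO, with a log2 fold change of -0.072 (95% interval -0.16 to 0.013). Against MY the *Tardbp* groups did not overlap, with a log2 fold change of -0.097 (SE 0.046, limma adjusted p = 0.165). Log2 fold changes of all 8 ran from -0.27 to 0.055 against WO and from -0.28 to 0.12 against MY. *Matr3* and *Hnrnpa1*, *Hnrnpa2b1*, *Ewsr1*, *Taf15* and *Tia1* encode further nuclear or stress granule proteins and were within those ranges. A p that misses the threshold does not show equal levels.

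Of 12 relatives of these proteins, *Pabpc1* alone was called in either comparison, and it rose. Over all genes, 27.9% were called against WO and 25.6% against MY. *Pabpc1*, which encodes the main cytoplasmic poly(A)-binding protein, was at 6.21, 6.12, 6.12, 5.82 and 5.98 in MO1 to MO5 and 5.48, 5.46, 5.46, 5.33 and 5.38 in WO1 to WO5. Every MO mouse was above every WO mouse, and the log2 fold change was 0.63 (SE 0.069, limma adjusted p = 0.000107) against WO and 0.63 against MY.

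Among 10 genes of autophagy, ubiquitin and vesicle proteins, *Sqstm1* rose in both comparisons, *Fig4* and *Vapb* fell in both and *Ubqln2* fell against WO. Over all genes, 15.0% rose and 12.9% fell against WO, and 13.1% rose and 12.5% fell against MY. *Sqstm1*, at chr11:50199366-50210827 on the minus strand, encodes the receptor p62, which brings ubiquitinated cargo to autophagosomes. *Sqstm1* had log2(1 + FPKM) levels of 8.36, 8.42, 8.27, 8.18 and 8.26 in MO1 to MO5, 8.17, 8.0, 8.04, 7.99 and 8.05 in WO1 to WO5, 7.96, 8.01 and 7.99 in MY1 to MY3 and 8.07, 7.94 and 7.97 in WY1 to WY3. The MO mice were all above the others, but MO4 exceeded WO1 only narrowly. The log2 fold change of *Sqstm1* was 0.25 (SE 0.052, limma adjusted p = 0.00527) against WO and 0.31 (SE 0.057, limma adjusted p = 0.00564) against MY. With quantile normalization the rise against MY was not called (limma adjusted p = 0.0674), and over its 16 alternatives its adjusted p ran from 0.000977 to 0.0674.

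*Vapb*, at chr2:173737511-173784336 on the plus strand, encodes a protein that tethers the endoplasmic reticulum to other membranes. *Vapb* had log2(1 + FPKM) levels of 5.13, 5.17, 5.07, 5.11 and 5.15 in MO1 to MO5, 5.36, 5.27, 5.35, 5.25 and 5.32 in WO1 to WO5, 5.32, 5.23 and 5.32 in MY1 to MY3 and 5.20, 5.29 and 5.27 in WY1 to WY3. MO mice were lowest, and WY1 was the nearest of the others. *Vapb* had a log2 fold change of -0.18 (SE 0.035, limma adjusted p = 0.00309) against WO and -0.16 (SE 0.041, limma adjusted p = 0.0215) against MY. In batch 1 alone neither difference was called, with a limma adjusted p of 0.0585 against WO and 0.0562 against MY. Over all alternatives the adjusted p of *Vapb* ran from 0.000873 to 0.0585 against WO and from 0.00711 to 0.125 against MY, where it was also lost without MY1 or MY3, with a pseudocount of 0.1 and with replicate number as a block. *Fig4*, at chr10:41188172-41303260 on the minus strand, encodes a phosphoinositide phosphatase of endosomes. *Fig4* had log2(1 + FPKM) levels of 3.66, 3.66, 3.66, 3.68 and 3.71 in MO1 to MO5, 3.77, 3.76, 3.83, 3.81 and 3.85 in WO1 to WO5, 3.86, 3.78 and 3.85 in MY1 to MY3 and 3.61, 3.86 and 3.81 in WY1 to WY3. WY1 was below all MO mice, which in turn were below every WO and MY mouse. *Fig4* had a log2 fold change of -0.13 (SE 0.031, limma adjusted p = 0.0105) against WO and -0.15 (SE 0.036, limma adjusted p = 0.0162) against MY, and it was not called against WO in batch 1 alone (limma adjusted p = 0.149, range over alternatives 0.00491 to 0.149) or without the 294-day WO mice (limma adjusted p = 0.0896). Against MY it was lost without MY1 or MY3 and with replicate number as a block, with an adjusted p from 0.0111 to 0.0838 over alternatives.

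*Ubqln2*, which encodes a shuttle factor for ubiquitinated proteins, fell against WO and was singled out after its values were seen. *Ubqln2* had log2(1 + FPKM) levels of 5.87, 5.97, 5.78, 5.71 and 5.82 in MO1 to MO5 and 5.98, 6.11, 6.05, 5.94 and 6.02 in WO1 to WO5. MO2 was above WO4, and the log2 fold change was -0.19 (SE 0.052, limma adjusted p = 0.0215) against WO and -0.071 (SE 0.058, limma adjusted p = 0.426) against MY. The fall against WO was called in 15 of 19 alternatives, with an adjusted p from 0.00687 to 0.158, and was lost without MO3 or WO2, in batch 1 alone and without the 294-day mice. *Ccnf*, which encodes the ubiquitin ligase subunit cyclin F, was the least abundant ALS-linked gene, with log2(1 + FPKM) levels of 0.83, 1.03, 0.78, 0.93 and 0.90 in MO1 to MO5, 0.77, 0.60, 0.91, 0.72 and 0.67 in WO1 to WO5, 0.84, 0.73 and 0.87 in MY1 to MY3 and 0.76, 0.70 and 0.59 in WY1 to WY3. The MO mice overlapped with WO and MY, and the log2 fold change of *Ccnf* was 0.16 (SE 0.065, limma adjusted p = 0.102) against WO and 0.079 (SE 0.063, limma adjusted p = 0.417) against MY. Against WO it was called without WO3, with an adjusted p from 0.0313 to 0.519 over alternatives. *Optn*, which encodes the autophagy receptor optineurin, differed by 0.12 (SE 0.063, limma adjusted p = 0.174) against WO on the log2 scale. In batch 1 alone *Optn* was called higher against WO (limma adjusted p = 0.018) and against MY (limma adjusted p = 0.0113), and within batch 2 the log2 difference from WO was -0.090. Over all alternatives the adjusted p of *Optn* ran from 0.018 to 0.328 against WO and from 0.0077 to 0.358 against MY. Against MY *Optn* was also called with batch as a term and with replicate number as a block. *Vcp*, *Tbk1*, *Chmp2b* and *Spg11* encode a segregase, a kinase of autophagy receptors, an ESCRT-III subunit and spatacsin, and none of the 4 was called. Their log2 fold changes were 0.041, -0.022, -0.014 and -0.0098 against WO.

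Counts of partners of these proteins stand beside 15.0% of all genes higher and 12.9% lower against WO, and 13.1% higher and 12.5% lower against MY, and nothing particular to the partners is read from them. Of 16 autophagy receptors and TBK1 partners, 3 rose and 2 fell against WO, and 3 rose and 1 fell against MY. *Nfe2l2*, which encodes the transcription factor NRF2 that p62 releases from KEAP1, was at 4.63, 4.93, 4.82, 4.63 and 4.56 in MO1 to MO5 and 3.96, 4.12, 4.03, 3.98 and 3.86 in WO1 to WO5. All MO values exceeded all WO values, and *Nfe2l2* had a log2 fold change of 0.72 (SE 0.076, limma adjusted p = 7.90e-05) against WO and 0.61 against MY. Of 12 VCP cofactors and ubiquilins, 1 rose and 2 fell against WO and 2 rose and 2 fell against MY, none of them by 1.5-fold. Of 17 ESCRT and endolysosomal partners, 3 rose and 0 fell against WO, and 2 rose and 1 fell against MY. *Grn*, which encodes the lysosomal protein progranulin, had levels of 6.45, 6.67, 6.80, 6.13 and 6.41 in MO1 to MO5 and 4.77, 4.68, 4.50, 4.23 and 4.29 in WO1 to WO5. The MO and WO ranges were far apart, and the log2 fold change of *Grn* was 2.00 (SE 0.14, limma adjusted p = 2.07e-05) against WO and 1.89 against MY.

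The 4 genes of cytoskeleton and transport proteins all fell against WO, and 3 of them against MY, where 12.9% and 12.5% of all genes fell. *Kif5a*, at chr10:127225696-127263348 on the minus strand, encodes a neuronal heavy chain of the motor kinesin-1. *Kif5a* had log2(1 + FPKM) levels of 8.02, 7.86, 7.89, 8.07 and 7.98 in MO1 to MO5, 8.37, 8.27, 8.45, 8.49 and 8.43 in WO1 to WO5, 8.43, 8.36 and 8.45 in MY1 to MY3 and 7.97, 8.57 and 8.26 in WY1 to WY3. MO mice were below every WO and MY mouse, whereas WY1 lay within the MO range. Its log2 fold change was -0.44 (SE 0.054, limma adjusted p = 0.000211) against WO and -0.45 (SE 0.057, limma adjusted p = 0.00103) against MY. In batch 1 and batch 2 taken apart, the log2 difference of *Kif5a* between WO and MO was -0.44 and -0.43.

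*Tuba4a*, at chr1:75214228-75219865 on the minus strand, encodes an alpha-tubulin of neuronal microtubules. *Tuba4a* had log2(1 + FPKM) levels of 7.37, 7.67, 7.56, 7.81 and 7.60 in MO1 to MO5, 8.13, 7.88, 8.03, 8.02 and 8.01 in WO1 to WO5, 7.92, 7.89 and 7.96 in MY1 to MY3 and 7.84, 7.88 and 7.89 in WY1 to WY3. MO mice were below all others, with MO4 close to WY1. *Tuba4a* had a log2 fold change of -0.41 (SE 0.076, limma adjusted p = 0.00257) against WO and -0.32 (SE 0.088, limma adjusted p = 0.0288) against MY. The fall against MY was called in 11 of 16 alternatives, with an adjusted p from 0.000783 to 0.102, and was lost without MO3, MO5, MY1, MY2 or MY3. *Dctn1*, at chr6:83165920-83200117 on the plus strand, encodes p150Glued, the dynactin subunit that binds microtubules for dynein transport. *Dctn1* had log2(1 + FPKM) levels of 6.60, 6.49, 6.55, 6.53 and 6.69 in MO1 to MO5, 6.89, 6.82, 6.75, 6.87 and 6.93 in WO1 to WO5, 6.78, 6.81 and 6.81 in MY1 to MY3 and 6.66, 6.73 and 6.80 in WY1 to WY3. WO and MY lay above MO, and MO5 was above WY1. *Dctn1* had a log2 fold change of -0.28 (SE 0.048, limma adjusted p = 0.00154) against WO and -0.23 (SE 0.049, limma adjusted p = 0.0111) against MY, and the second was lost without MY3 (adjusted p over limma alternatives 0.00429 to 0.0506). *Nek1*, at chr8:60993195-61131346 on the plus strand, encodes a kinase of cilia and DNA repair. *Nek1* had log2(1 + FPKM) levels of 3.35, 3.26, 3.50, 3.43 and 3.29 in MO1 to MO5, 3.57, 3.51, 3.47, 3.53 and 3.6 in WO1 to WO5, 3.52, 3.43 and 3.51 in MY1 to MY3 and 3.75, 3.64 and 3.51 in WY1 to WY3. MO3 lay within the WO range, so that the groups overlapped. *Nek1* had a log2 fold change of -0.17 (SE 0.051, limma adjusted p = 0.0314) against WO and -0.12 (SE 0.061, limma adjusted p = 0.207) against MY, and the first was called in 9 of 19 alternatives, with an adjusted p from 0.0126 to 0.255.

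Of 17 tubulins, kinesin-1 and dynactin genes beside these, 5 fell and 1 rose against WO, and 7 fell and 1 rose against MY, beside the same shares of all genes. The 1 that rose was *Tuba1c*, another alpha-tubulin, at 1.03, 1.32, 1.21, 0.94 and 1.14 in MO1 to MO5 and 0.34, 0.28, 0.19, 0.23 and 0.16 in WO1 to WO5. Every MO mouse was above every WO mouse at these low levels, and the log2 fold change of *Tuba1c* was 0.89 (SE 0.070, limma adjusted p = 2.16e-05) against WO and 0.65 against MY. Alpha-tubulins have near-identical coding sequences, so how reads were divided among them is uncertain.

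*Unc13a* and *Stmn2* encode a synaptic vesicle priming protein and a regulator of axonal microtubules, and their human transcripts depend on TDP-43. *Unc13a*, at chr8:71624417-71671757 on the minus strand, had log2(1 + FPKM) levels of 3.88, 3.82, 3.91, 3.83 and 4.15 in MO1 to MO5, 4.28, 4.34, 4.27, 4.18 and 4.33 in WO1 to WO5, 4.31, 4.20 and 4.32 in MY1 to MY3 and 3.94, 4.29 and 4.18 in WY1 to WY3. MO5 was the highest MO mouse and still below every WO and MY mouse, while WY1 was within the MO range. *Unc13a* had a log2 fold change of -0.36 (SE 0.064, limma adjusted p = 0.00192) against WO and -0.36 (SE 0.078, limma adjusted p = 0.0115) against MY, and the second was lost without MY1 or MY3 (adjusted p over limma alternatives 0.00148 to 0.0544). *Stmn2* had a level of 8.13 ± 0.12 (SD, n = 5) in MO and 8.16 ± 0.075 (SD, n = 5) in WO. In young mice it was 8.18 ± 0.014 (SD, n = 3) in MY and 8.14 ± 0.020 (SD, n = 3) in WY. MO and WO overlapped, and the log2 fold change of *Stmn2* against WO was -0.033 (95% interval -0.17 to 0.10). *Stmn2* is described as a known TDP-43 target and was singled out after its values were seen. Against MY it was called in 1 of 16 alternatives, with quantile normalization, over an adjusted p from 0.0351 to 0.914. Of 6 other stathmin and Unc13 genes, 1 fell and 1 rose in each comparison. Over all genes, 12.9% fell and 15.0% rose against WO, and 12.5% fell and 13.1% rose against MY.

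Both receptor tyrosine kinases were called lower in each comparison, where 12.9% of all genes fell against WO and 12.5% against MY. *Epha4*, at chr1:77367185-77515088 on the minus strand, encodes a receptor for ephrins. *Epha4* had log2(1 + FPKM) levels of 2.45, 2.59, 2.48, 2.63 and 2.50 in MO1 to MO5, 2.75, 2.98, 3.08, 2.99 and 3.01 in WO1 to WO5, 2.85, 2.86 and 2.88 in MY1 to MY3 and 2.55, 3.11 and 2.94 in WY1 to WY3. MO mice were below all WO and MY mice, and WY1 was within the MO range. *Epha4* had a log2 fold change of -0.43 (SE 0.062, limma adjusted p = 0.000531) against WO and -0.33 (SE 0.049, limma adjusted p = 0.00203) against MY. *Erbb4*, at chr1:68032186-69108059 on the minus strand, encodes a receptor for neuregulins. *Erbb4* had log2(1 + FPKM) levels of 1.67, 1.67, 1.62, 1.74 and 1.87 in MO1 to MO5, 1.65, 2.00, 2.50, 2.27 and 2.09 in WO1 to WO5, 2.15, 2.09 and 2.33 in MY1 to MY3 and 1.32, 2.45 and 2.17 in WY1 to WY3. WO1 lay within the MO range and WY1 below it, whereas MY lay wholly above. *Erbb4* had a log2 fold change of -0.39 (SE 0.13, limma adjusted p = 0.0491) against WO, called in 4 of 19 alternatives with an adjusted p from 0.00465 to 0.234, and lost when any 1 of the MO mice or WO2, WO3, WO4 or WO5 was left out. Against MY the log2 fold change of *Erbb4* was -0.48 (SE 0.073, limma adjusted p = 0.00227), and it was not called with all groups in 1 fit (adjusted p over limma alternatives 0.00128 to 0.112).

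Of 17 ephrins, neuregulins and related receptors, 7 fell and 2 rose against WO, and 7 fell and 1 rose against MY. Of all genes, 12.9% fell and 15.0% rose against WO, and 12.5% fell and 13.1% rose against MY. *Nrg1*, which encodes the ErbB ligand neuregulin 1, was at 2.82, 2.80, 2.67, 2.77 and 2.95 in MO1 to MO5 and 3.33, 3.42, 3.70, 3.52 and 3.49 in WO1 to WO5. MO was below WO in every mouse, and *Nrg1* had a log2 fold change of -0.69 (SE 0.072, limma adjusted p = 7.53e-05) against WO and -0.56 against MY. *Erbb3*, a neuregulin receptor with a strong role in glia, was at 2.52, 2.64, 2.46, 2.53 and 2.63 in MO1 to MO5, 3.39, 3.30 and 3.17 in MY1 to MY3 and 3.03, 2.75, 3.02, 3.26 and 3.16 in WO1 to WO5. The MO mice were below all MY and WO mice, and the log2 fold change of *Erbb3* was -0.48 against WO and -0.73 (SE 0.062, limma adjusted p = 0.000292) against MY.

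*Sod1*, at chr16:90220754-90226329 on the plus strand, encodes cytosolic copper-zinc superoxide dismutase and was the most abundant of the genes. *Sod1* had log2(1 + FPKM) levels of 8.91, 9.10, 9.05, 9.07 and 8.81 in MO1 to MO5, 9.06, 8.75, 8.92, 8.81 and 8.84 in WO1 to WO5, 8.73, 8.80 and 8.86 in MY1 to MY3 and 9.09, 8.78 and 8.89 in WY1 to WY3. Groups overlapped, and WY1 and WO1 lay within the upper part of the MO range. The log2 fold change of *Sod1* was 0.12 (SE 0.072, limma adjusted p = 0.279) against WO and 0.20 (SE 0.074, limma adjusted p = 0.0909) against MY. Both turned sign with quantile normalization, to -0.051 and -0.033. Against MY *Sod1* was called without MO5 and with replicate number as a block, with an adjusted p from 0.026 to 0.668 over alternatives. *Chchd10*, which encodes a protein of the mitochondrial intermembrane space, differed by -0.21 (SE 0.079, limma adjusted p = 0.0677) against WO and 0.070 (SE 0.077, limma adjusted p = 0.57) against MY on the log2 scale. Against WO it was called in 4 of 19 alternatives, among them those without MO4 and without WO4, with an adjusted p from 0.00737 to 0.166. Of 10 mitochondrial and superoxide partners, 1 rose and 2 fell in each comparison, none by 1.5-fold. Over all genes, 15.0% rose and 12.9% fell against WO, and 13.1% rose and 12.5% fell against MY. The shares of all genes called with a 1.5-fold change were 4.60% and 4.90%.

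*Ang* had the largest change of the 32 genes in both comparisons. It encodes angiogenin, a secreted ribonuclease that cleaves transfer RNA under stress, and lies at chr14:51091150-51102009 on the plus strand. *Ang* had log2(1 + FPKM) levels of 3.26, 3.66, 3.36, 2.94 and 3.13 in MO1 to MO5, 2.26, 2.01, 2.28, 1.54 and 1.86 in WO1 to WO5, 1.98, 1.60 and 2.04 in MY1 to MY3 and 2.25, 1.69 and 1.89 in WY1 to WY3. All MO mice were above all 11 others, among which WO1, WO3 and WY1 were highest. *Ang* had a log2 fold change of 1.28 (SE 0.16, limma adjusted p = 0.000243) against WO and 1.40 (SE 0.16, limma adjusted p = 0.000732) against MY, which is 2.43-fold and 2.63-fold on this scale. Mean FPKM of *Ang* was 8.78 in MO against 3.04 in WO, and it was 2.69 in MY and 2.9 in WY. Within batch 1 and batch 2, the log2 difference of *Ang* from WO was 1.24 and 1.34.

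*Rnase4*, which encodes another secreted ribonuclease, overlaps *Ang* on the same strand at chr14:51091077-51106151 on the plus strand and shares 219 exonic bases with it in GENCODE M21. *Rnase4* had log2(1 + FPKM) levels of 4.99, 5.32, 5.22, 4.62 and 4.92 in MO1 to MO5 and 3.88, 3.79, 4.07, 3.6 and 3.49 in WO1 to WO5. As for *Ang*, MO lay wholly above WO, and the log2 fold change of *Rnase4* was 1.25 (SE 0.14, limma adjusted p = 0.000125) against WO and 1.31 (SE 0.14, limma adjusted p = 0.000571) against MY. How fragments of the shared exon were divided between the genes is unknown. Exons of *Tuba4a*, *Unc13a*, *Atxn2* and *Tardbp* overlap genes of the opposite strand by 1379, 495, 99 and 1817 bases. Those of *Spg11*, *Vcp*, *Ewsr1* and *Glt8d1* do so by 1107, 352, 258 and 252 bases, and those of *Chchd10* by 155 and 25. The libraries were prepared with a stranded kit, but whether strand was used in quantification is not given.

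RefSeq gives *Ang* 1 start and *Rnase4* 2 starts, of which 1 is common to both genes, and the sequence before the common start is shown because it is common to 2 genes that rose together. It lies at chr14:51090827-51091076 on the plus strand of GRCm38.p6. The sequence before the start of *Sqstm1*, at chr11:50210821-50211070 on the minus strand, is shown as that of the other gene that rose. Capitals mark the GC box motif GGGCGG or its reverse complement CCGCCC.
*Ang* and *Rnase4*: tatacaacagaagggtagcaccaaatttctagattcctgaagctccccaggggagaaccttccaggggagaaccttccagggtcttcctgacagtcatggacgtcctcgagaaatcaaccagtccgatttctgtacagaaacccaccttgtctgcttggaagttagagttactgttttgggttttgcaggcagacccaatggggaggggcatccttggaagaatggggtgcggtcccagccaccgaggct
*Sqstm1*: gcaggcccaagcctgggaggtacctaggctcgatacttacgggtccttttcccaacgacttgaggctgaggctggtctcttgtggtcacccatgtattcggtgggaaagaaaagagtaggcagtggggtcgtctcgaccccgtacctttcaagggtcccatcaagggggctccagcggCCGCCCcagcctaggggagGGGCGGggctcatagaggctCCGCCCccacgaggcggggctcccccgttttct
The GC box was found at 3 places before *Sqstm1* and at none before *Ang*, and it occurs in 32.7% of 32851 RefSeq windows of the same length. The TATA motif TATAAA (12.4% of windows) and the motif TGACNNNGC (10.2% of windows), read on both strands, were in neither window. A match describes letters only, and a missing match says nothing of a factor. RefSeq windows were found for 27 of the 32 genes, of which 16 held the GC box, 3 the TATA motif and 3 the motif TGACNNNGC, but not for *Ubqln2*, *Matr3*, *Nek1*, *Kif5a* and *Stmn2*. A gene was counted if any of its windows held the motif, whereas the shares above are of single windows. The counts of genes are therefore not comparable with these shares.

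*Smn1*, *Sptlc1* and *Glt8d1* encode the assembly factor of spliceosomal ribonucleoproteins, a subunit of serine palmitoyltransferase and a glycosyltransferase. None of the 3 was called, with log2 fold changes of 0.15, 0.079 and -0.0089 against WO. Of 16 genes of sphingolipid synthesis, the SMN complex and angiogenin partners, *Rnase4* included, 5 rose and 1 fell against WO, and 4 rose and 2 fell against MY. Among 21 other ALS-linked genes not in the list of 32, 1 rose and 6 fell against WO, and 1 rose and 7 fell against MY. The shares of all genes that rose and fell were 15.0% and 12.9% against WO and 13.1% and 12.5% against MY, for these and the sphingolipid, SMN and angiogenin genes alike. The 1 other ALS-linked gene that rose was *Grn*. *Nefh*, which encodes the heavy neurofilament subunit of large axons, was at 7.45, 7.47, 7.35, 7.82 and 7.54 in MO1 to MO5 and 8.44, 8.16, 8.20, 8.21 and 8.32 in WO1 to WO5. MO lay wholly below WO, and *Nefh* had a log2 fold change of -0.74 (SE 0.086, limma adjusted p = 0.000149) against WO and -0.81 against MY.

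**Figure D2:**
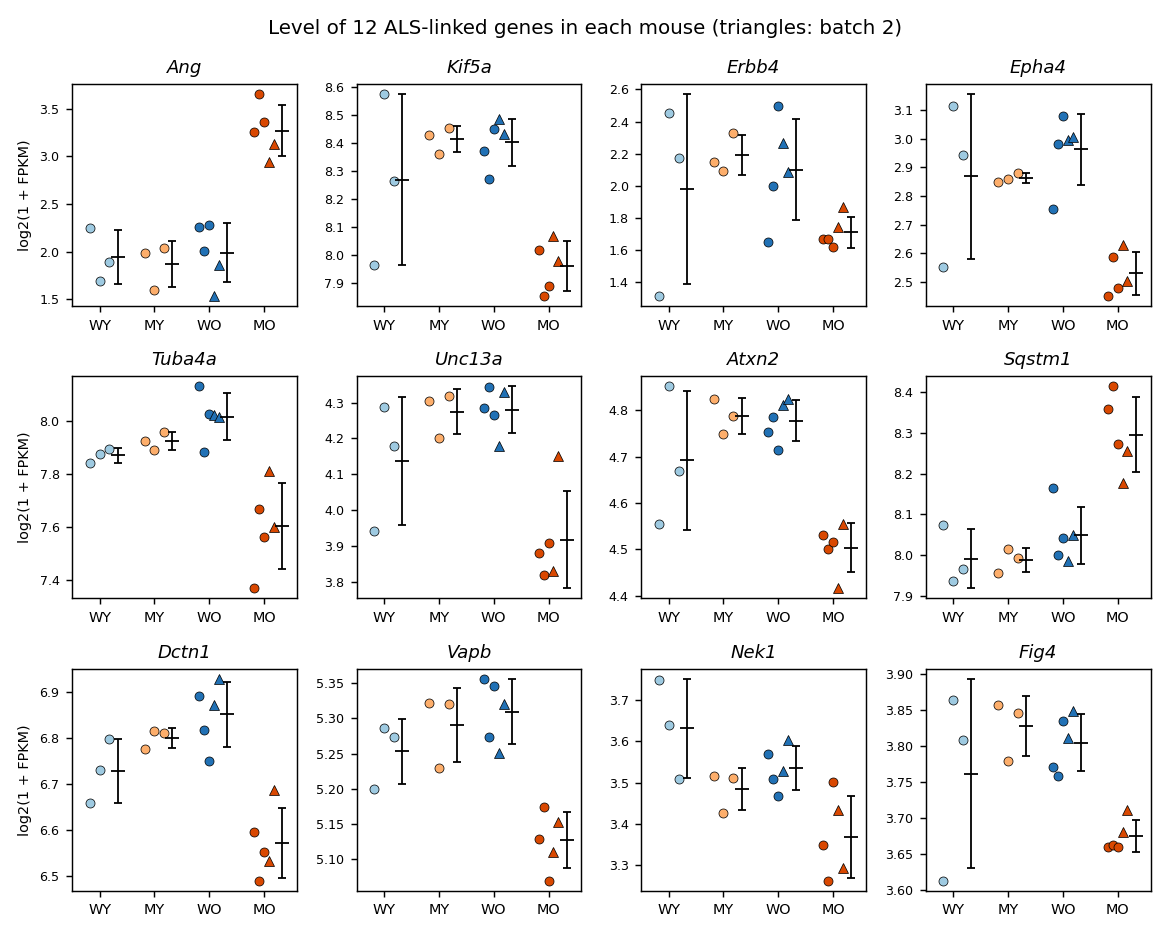
Levels in log2(1 + FPKM) of the 12 called genes with the largest mean absolute log2 fold change of MO against WO and MY, 1 point per mouse, by group, with the mean and SD beside the points. Triangles are libraries of batch 2. *Ang* and *Sqstm1* are highest in MO, and for the genes that fell in both comparisons the lowest point outside MO is WY1.

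Neither age in wild-type mice nor the mutation before symptoms gave a called difference. Between WY and WO, limma called 0 of the 32 genes (1.12% of all genes), and 5 had an unadjusted p under 0.05, as did 13.5% of all genes. Those 5 were *Ubqln2*, *Tuba4a*, *Chmp2b*, *Taf15* and *Sptlc1*, with *Sptlc1* lowest at a limma adjusted p = 0.112. Between WY and MY, limma called 0 of the 32 genes (0.00550% of all genes), and 0 had an unadjusted p under 0.05, against 7.16% of all genes. Each of 9 alternatives between WY and WO and each of 6 between WY and MY, and every fit that left out 1 mouse, also called 0. The 95% intervals were wide for some genes. The log2 fold change of *Erbb4* between WY and MY was 0.21 with an interval from -0.47 to 0.89, and that of *Ang* was -0.071 with an interval from -0.49 to 0.35. Without WY1 both turned sign, to a log2 fold change of -0.12 for *Erbb4* and 0.081 for *Ang*.

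The age effect differed between genotypes for 9 genes, where the difference is that of MO minus MY less that of WO minus WY. It was above 0 for *Ang* and *Sqstm1*, 2 of 32 (10.5% of all genes), and below 0 for 7 (7.19% of all genes), 9 in all against 17.7% of all genes. The 7 were *Tuba4a*, *Kif5a*, *Vapb*, *Dctn1*, *Atxn2*, *Unc13a* and *Epha4*. *Ang* had a difference of 1.35 (SE 0.26, limma adjusted p = 0.003) on the log2 scale and *Kif5a* one of -0.58 (SE 0.14, limma adjusted p = 0.0102). *Sqstm1* and *Epha4* were called in only 7 and 6 of 24 alternatives, and *Kif5a* was lost in batch 1 alone (limma adjusted p over alternatives 0.000565 to 0.0504). Without WY1 the difference was -0.27 for *Epha4* (limma adjusted p = 0.106) and 0.21 for *Sqstm1* (limma adjusted p = 0.112), with ranges over alternatives of 0.00833 to 0.151 and 0.0183 to 0.415. The other differences were smaller in size without WY1 as well. They were 1.20 for *Ang*, -0.45 for *Tuba4a*, -0.43 for *Kif5a*, -0.40 for *Unc13a*, -0.32 for *Dctn1*, -0.30 for *Atxn2* and -0.19 for *Vapb*. Without WY1, 7 genes were called, all among the 9, and without MO5, 8, all among the 9. Over all genes the same fits called 2335 without WY1 and 3105 without MO5, where 3210 were called with all mice.

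A library outside MO shared the low levels. WY1 had the lowest level among the 11 mice outside MO for 9 of the 9 genes that fell in both comparisons, and it was at or below the highest MO mouse for 6 of them. Over all 32 genes it was the lowest of the 11 for 12 and the highest for 11, so it stood apart in both directions. Among all 1489 genes that fell in both comparisons it was the lowest in 992 (66.6%). The longest coding transcript of the 9 genes had a median of 6295 bases in GENCODE M21, against 2606 bases for the 21 genes without a rise or a fall in both. It ran from 2840 bases for *Tuba4a* to 12037 bases for *Erbb4*. The part of transcript length or of RNA quality in the decreases was not tested. WY1 is in neither the WO nor the MY group, so the comparisons of MO with these do not use it.

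Markers of several cell types moved with the same groups. Over all genes, 15.0% rose and 12.9% fell against WO, and 13.1% rose and 12.5% fell against MY. Of 10 microglia markers, 9 rose in each comparison. Their summed FPKM was 645, 814, 985, 575 and 624 in MO1 to MO5 and 211, 219, 226, 164 and 158 in WO1 to WO5, with *C1qa* the most abundant. It was 187, 202 and 194 in MY1 to MY3 and 202, 189 and 201 in WY1 to WY3, so that every MO mouse was above all others. Of 8 astrocyte markers, 6 rose against WO and 4 against MY, led by *Gfap*. Their summed FPKM was 3194, 4085, 3703, 3307 and 3322 in MO1 to MO5 and 1882, 1880, 1981, 2079 and 1822 in WO1 to WO5. It was 2245, 2276 and 2191 in MY and 2555, 2365 and 2333 in WY.

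Most neuronal markers were called lower in MO, where 12.9% of all genes fell against WO and 12.5% against MY. Of 6 motor neuron markers, 5 fell in each comparison, with *Slc5a7* the most abundant. Their summed FPKM was 54.3, 54.6, 43.4, 53.8 and 49.8 in MO1 to MO5 and 83.4, 73.2, 75.4, 71.5 and 74.4 in WO1 to WO5. It was 66.2, 69.5 and 63.8 in MY and 45.7, 65.2 and 67.2 in WY, where WY1 was within the MO range. Of 8 markers of neurons in general, 7 fell in each comparison, with *Snap25* the most abundant. Their summed FPKM was 2682, 2864, 2666, 3096 and 2701 in MO1 to MO5 and 4170, 3665, 3792, 3813 and 3990 in WO1 to WO5. It was 3696, 3614 and 3732 in MY and 3216, 3621 and 3549 in WY. The 1 general marker not called against WO had a log2 fold change of 0.042. With a longer list of general neuron markers, the paper reported no significant difference in neurons between groups. From a separate list of motor neuron markers, it reported a lower motor neuron composition in MO. The paper compared geometric means of log2(1 + FPKM) over each list, not calls of single genes or summed FPKM, so the measures differ. The part of cell type composition in the differences of the ALS-linked genes was not tested.

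Other lists moved less evenly, beside 15.0% of all genes higher and 12.9% lower against WO, and 13.1% and 12.5% against MY. Of 7 oligodendrocyte markers, 2 fell against WO and 4 against MY, and their summed FPKM, with *Mbp* the most abundant over all mice, was 6912, 7397, 7563, 21928 and 21283 in MO1 to MO5 and 10033, 9296, 9317, 5064 and 23722 in WO1 to WO5. For young mice the sum was 14622, 14096 and 13749 in MY and 16173, 13935 and 14269 in WY. The old mice of batch 2 were at the extremes, with MO4, MO5 and WO5 above every other mouse and WO4 below every other. Between WY and WO, 4 of these 7 markers were also called lower in WO, where 1.12% of all genes were called. Of 4 oligodendrocyte precursor markers, 1 rose against WO and 1 fell against MY. Of 5 endothelial markers, 4 fell against WO and 0 against MY, with a summed FPKM of 42.2, 48.9, 46.8, 47.9 and 45.2 in MO1 to MO5 and 64.2, 64, 67.3, 45.9 and 64.4 in WO1 to WO5. Of 4 blood markers measured, 0 were called, and their summed FPKM was 11.7, 64.4, 60.4, 60.5 and 43.3 in MO1 to MO5 and 96.8, 62.8, 61.1, 95.1 and 79.3 in WO1 to WO5. The 5 sex markers gave 0 calls in either comparison. Markers of motor neurons and of glia were present, as the label spinal cord requires. Of 3 sensory neuron markers measured 1 rose in each comparison, and of 4 skeletal muscle markers 1 fell against WO. The summed FPKM of these lists was at most 0.736 and 1.77 in any mouse, and *Scn10a* and *Myh4* were at or below 0 in at least 1 mouse.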

How the data were processed

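The deposited values are log2(1 + FPKM) that the authors made with Trimmomatic, TopHat and Cufflinks on mm10, filtered for genes at 0 in many mice, and corrected for batch with ComBat, whose covariates are not named. These values were used without further normalization. Each pair of groups was fitted with limma 3.58.1 in R 4.3.3, second group minus first, over all 18167 genes, with Benjamini-Hochberg adjustment. The interaction is (MO - MY) - (WO - WY). Python 3.11.15 with pandas 2.3.3, NumPy 2.4.6 and matplotlib 3.10.9 made the summaries. Summed FPKM of a list is the sum of values taken back from the log2 scale. The members and lists were chosen with earlier results of these data known.

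Per-mouse values are given for called ALS-linked genes, at most the 12 with the largest mean absolute log2 fold change against WO and MY, for genes called in the other comparisons, and for the most and least abundant gene. From each related list, genes called with a fold change of 1.5 were named, at most 3. Alternatives were another pseudocount, a filter on low levels, quantile normalization, an intensity trend, batch as a term, all groups in 1 fit, batch 1 alone, replicate number as a block, and leaving out each mouse. The fit without the 294-day mice was chosen after seeing the data. Gene positions are from GENCODE M21 on GRCm38.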

Additional observations from a re-analysis of the deposited data

Results flagged for a closer look

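In 64 groups of 5 mice, 2 single mice lay far from the rest of their group. Chance alone gives about 1 in 20 groups, so these 2 are not above that rate. The young groups of 3 mice were too small for this check, so WY1 could not be flagged by it. *Unc13a* was at a log2(1 + FPKM) level of 4.15 in MO5, with 3.91 as the nearest MO mouse. *Sptlc1* was at 4.30 in MO4, with 4.17 as the nearest.

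For 9 of the 32 genes the age effect on the log2 scale differed between mutant and wild-type mice by the limma interaction. The same interaction called 17.7% of all genes. The difference was 1.35 for *Ang* (adjusted p = 0.00300) and 0.25 for *Sqstm1* (adjusted p = 0.0389). It was -0.58 for *Kif5a* (adjusted p = 0.0102), -0.50 for *Unc13a* (adjusted p = 0.00784), -0.47 for *Tuba4a* (adjusted p = 0.00827) and -0.43 for *Epha4* (adjusted p = 0.0486). It was -0.37 for *Atxn2* (adjusted p = 0.00505), -0.35 for *Dctn1* (adjusted p = 0.00389) and -0.22 for *Vapb* (adjusted p = 0.0140). Without WY1, which was low for the 7 genes with a difference below 0, that of *Epha4* was -0.27 (limma adjusted p = 0.106) and that of *Sqstm1* 0.21 (limma adjusted p = 0.112), and neither was called. Each of the other differences was smaller in size without WY1 but still called, with -0.43 for *Kif5a* and 1.20 for *Ang*.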

How the results depend on the processing

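Between MY and MO, 11 genes were called, 10 to 12 under 8 other settings, and 6 to 11 when 1 mouse was left out, with 6 without MY3 and 7 without MY1. The cause was not tested. Between WO and MO, 13 were called, 9 to 14 under 9 other settings and 11 to 13 when 1 mouse was left out. In batch 1 alone, 9 were called, and 2612 of all genes. Without the 294-day WO mice the counts were 9 and 3025, where all mice gave 13 and 5075. The interaction called 9, 7 to 10 under 8 other settings and 7 to 11 when 1 mouse was left out. WY vs. WO and WY vs. MY gave 0 throughout. With a replicate block the counts were 11, 11, 10, 0 and 0 for MY vs. MO, WO vs. MO, the interaction, WY vs. WO and WY vs. MY, although replicate numbers do not pair the mice, and old mice 4 and 5 add nothing to blocked fits with 1 young group. Counts over all genes are not given for most of these fits, so nothing particular to the ALS-linked genes is read from the ranges. The direction of every called member was kept under each alternative. Groups of 3 mice limit the comparisons with MY and WY, and the deposited values do not hold the depth behind them.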
